A study of Mus musculus with 4 samples.

Results

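Mitochondrial ribosomal proteins were followed in mouse embryo fibroblasts of the C3H10T1/2 line that had been transformed with chemicals, with and without phorone. Phorone is an unsaturated ketone used to deplete cells of glutathione. The members were chosen by name: every gene probe outside the controls whose array name starts with Mrpl or Mrps followed by a number. This rule found 111 probes for 75 genes among 40628 gene probes on the array. By name, 67 of the probes (46 genes) belong to the large subunit and 44 (29 genes) to the small subunit.

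Gene expression was measured by hybridising total RNA, labelled with Cy3, to 4 one-colour Agilent arrays. The phorone group held 2 arrays of transformed cells exposed to 2 mM phorone, and the control group held 2 arrays of transformed cells without it. Both groups had been transformed in the same way, with 2.5 µg/ml of 3-methylcholanthrene for 2 days, then 4 days of normal medium, 2 weeks with 100 ng/ml TPA, a phorbol ester that promotes tumours, and 4 weeks of normal medium. How long phorone was present, and in which vehicle, is not stated in the labels. Whether a group's arrays stand for separate cultures is not stated either, and the spread behind each p-value may therefore be technical.

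Mitochondria carry their own ribosome, which translates the few messenger RNAs of mitochondrial DNA, all of them for inner membrane subunits of oxidative phosphorylation. Its RNAs are made in the organelle, but all of its proteins are encoded in the nucleus, translated in the cytosol and imported. The large subunit forms peptide bonds and holds the exit tunnel, and the small subunit holds the messenger RNA and decodes it. Structures divide the proteins further: many descend from the bacterial ribosome, and others were gained in mitochondria.

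Since 42 of these genes were called higher with phorone, as described further on, the DNA just upstream of the members' start sites was examined in RefSeq sequences of the GRCm38.p6 assembly. Promoters, taken as 250 bases before to 50 bases after a start site, were found for 66 of the 75 genes. The stretches below are the 100 bases before the start sites of 3 genes, read 5′ to 3′ on the gene's strand. They are shown because they carry the cores of binding sites for ETS factors, such as GABPA, or for nuclear respiratory factor 1 (NRF1), both known regulators of mitochondrial genes. Capitals mark those cores on either strand, CCGGAAG for ETS and GCATGCG for NRF1.
Mrpl3: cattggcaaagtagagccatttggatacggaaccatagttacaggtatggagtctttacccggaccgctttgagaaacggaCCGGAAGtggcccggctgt
Mrps22: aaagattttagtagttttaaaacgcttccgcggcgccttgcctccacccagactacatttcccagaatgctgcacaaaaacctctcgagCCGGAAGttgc
Mrpl33: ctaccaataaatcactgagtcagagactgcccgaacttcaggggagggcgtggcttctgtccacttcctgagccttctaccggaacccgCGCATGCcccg
The Mrpl3 stretch lies at chr9:105053168-105053267 on the plus strand, that of Mrps22 at chr9:98601680-98601779 on the minus strand, and that of Mrpl33 at chr5:31613851-31613950 on the plus strand. The first 2 of these genes rose with phorone and the last did not pass the test, with values given further on.

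On both strands, the ETS core was found in 24 of the 66 members' promoters (36.4%), against 9.93% of 27025 promoters in all and 19.1% of the 10326 promoters of genes tested here. It stood in 12 of 38 members that rose and in 12 of 28 that did not pass the test. The NRF1 core was found in 8 members (12.1%), against 4.01% of all promoters and 7.0% of those of tested genes. The YY1 core AAGATGG was in 12 members (18.2%), against 7.28% of all promoters and 8.45% of those of tested genes. The antioxidant response element core TGACNNNGC was in 13 members (19.7%), against 14% and 16.7%, and the MYC E-box CACGTG in 5 (7.58%), against 8.09% and 11.4%. The GC box GGGCGG was in 32 members (48.5%), against 38.2% of all promoters and 66.0% of those of tested genes. Of the 38 members that rose and the 28 that did not pass, 5 and 3 held the NRF1 core. The YY1 core stood in 5 and 7 of them, and the antioxidant response element core in 8 and 5. The E-box stood in 3 and 2, and the GC box in 17 and 15. These shares describe letters in a fixed window and were not tested.

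All 4 arrays lay on 1 slide and were read in 1 scan, with both phorone arrays in one row and both control arrays in another, so the effects of row and phorone cannot be told apart. Levels below are log2 signals relative to each array's 75th percentile, which stood at 563 and 572 for phorone and 701 and 747 for control. The labelled cell type was checked with 9 fibroblast markers: Col1a1 and Vim, which did not pass the test, were bright on all 4 arrays (at least 6.93). Of these 9 markers 7 fell and 0 rose. The largest falls on the log2 scale were those of Dcn (-4.52), Col3a1 (-3.38) and Lum (-3.28). Lum was well above background on both control arrays and on neither phorone array. The summed signal of the 9 markers was 669 and 703 on the phorone arrays and 1545 and 1606 on the control arrays, in units of the 75th percentile. Markers of other cell types were dim. The summed signal of 5 macrophage markers was 0.506 and 0.696 on the phorone arrays and 0.237 and 0.286 on the control arrays, and Cd68 rose by 1.26 (limma adjusted p = 0.00938), while Ptprc, Adgre1 and Itgam were not well above background on any array. Csf1r was well above background on both phorone arrays and 1 control array, with a log2 fold change of 1.33 (limma adjusted p = 0.116). The sum of 6 epithelial markers was 0.455 and 0.318 with phorone and 0.261 and 0.296 in control cells, with Cdh1 and Krt18 not well above background on any array. Krt5 (1.47), Krt8 (0.08) and Krt14 (-0.07) were well above background on all 4 arrays and did not pass the test. Epcam was well above background on 1 control array only. The sum of 4 endothelial markers was 0.0316 and 0.0540 with phorone and 0.0963 and 0.104 in control cells. Of these, Pecam1, Cdh5 and Kdr were not well above background on any array, and Tek was so on both control arrays and on neither phorone array (lower, limma adjusted p = 0.00039). The part of these markers in the results below was not tested.

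The comparison asked how the expression of transformed cells exposed to phorone differed from that of unexposed ones. Genes of mitochondrial ribosomal proteins were higher with phorone: 42 of 75 rose and 0 fell in limma (adjusted p below 0.05 over 17033 genes). At an unadjusted p below 0.05, 49 were higher and 0 lower. Among all genes tested, 24.3% were called higher and 21.3% lower. The members' median log2 fold change, phorone minus control, was 0.45, against 0.08 over all genes, and the individual changes were small, between -0.39 and 1.03. Of the members, 5 were called and at least 2-fold higher (Mrpl1, Mrpl35, Mrpl47, Mrps31 and Mrps22), a smaller share than the 8.03% of all genes. All 75 genes were well above background on every array, so none entered through a single group. In bulk RNA, a change in the mix of cells and a change of RNA per cell cannot be told apart.

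**Figure D1:**
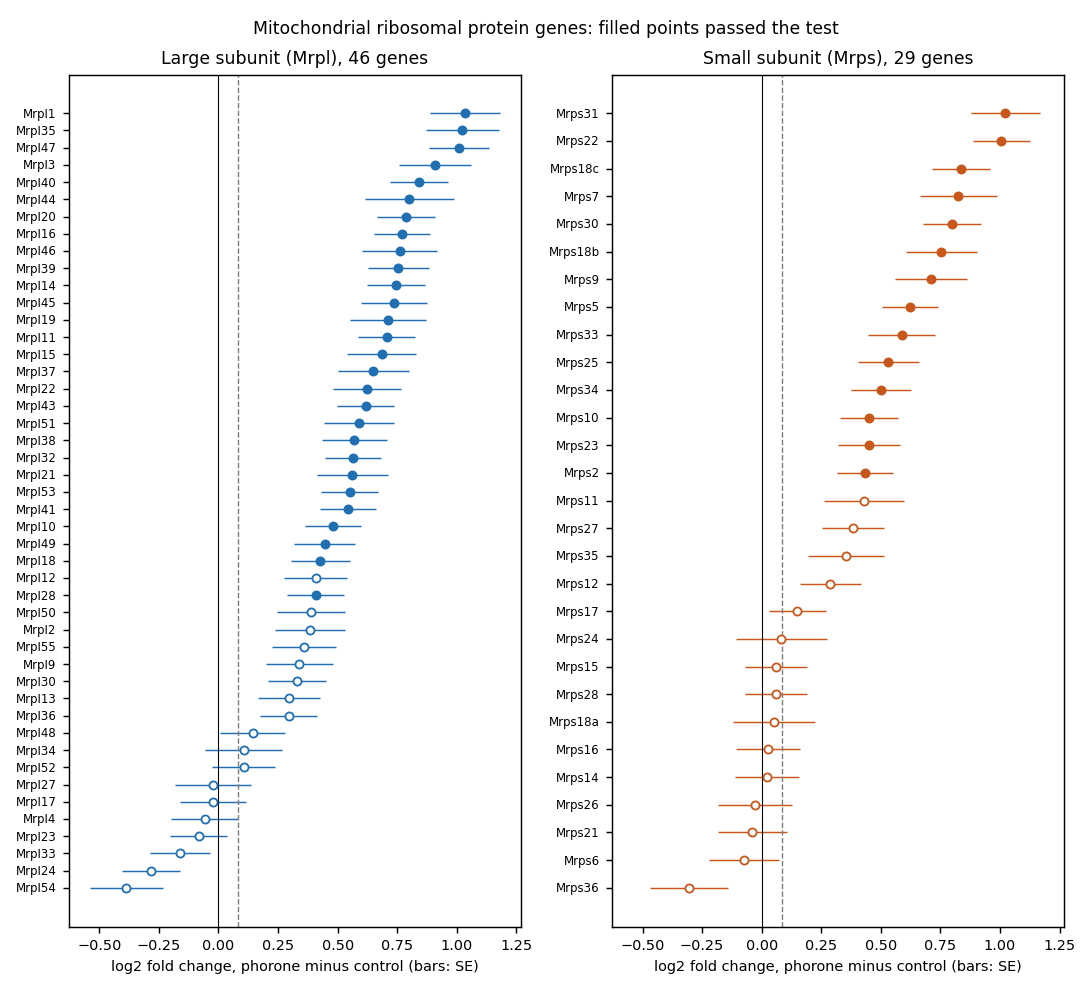
Log2 fold change, phorone minus control, of the 75 genes, large subunit on the left and small subunit on the right; points are limma estimates from 2 arrays a group, bars their standard errors, filled points passed the test and the dashed line is the median of all genes tested (0.08). Filled points run to 1.03 in the large and 1.02 in the small subunit, and no gene left of 0 is filled.

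How many genes passed depended on the arrays, since without phorone replicate 1 only 12 rose (16.0% of members, against 14.8% of all genes) and without phorone replicate 2 only 18 (24.0%, against 12.2%). Spike-in scaling left 21 higher (28.0%, against 16.9% of all genes higher and 7.06% lower), and no filter on dim probes left 15 (20.0%, against 7.86%). A lone array is assumed in such fits to vary like those of the other group. The members' median was 0.44 and 0.49 without phorone replicates 1 and 2 and 0.43 and 0.52 without control replicates 1 and 2. Under spike-in scaling it was 0.89, where the median of all genes was 0.52. The means of the 7 spike-ins used were 11.88 and 11.72 (log2) on the phorone arrays. On the control arrays they were 12.21 and 12.95, further apart than on the phorone arrays.

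Within the slide column of replicate 1 the members' median difference, phorone minus control, was 0.54, and within that of replicate 2 it was 0.41. The difference was positive for 69 of 75 genes in the column of replicate 1, for 56 in that of replicate 2 and for 55 in both. Of the 75 genes, 55 had both phorone arrays above both control arrays, against 43.6% of all genes, and 5 had both below, against 34.3% of all genes. The other members overlapped between the groups, and 77.9% of all genes did not. Summed over the 75 genes, the signal was 1200 and 1142 on the phorone arrays and 874 and 909 on the control arrays, in units of the 75th percentile.

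**Figure D2:**
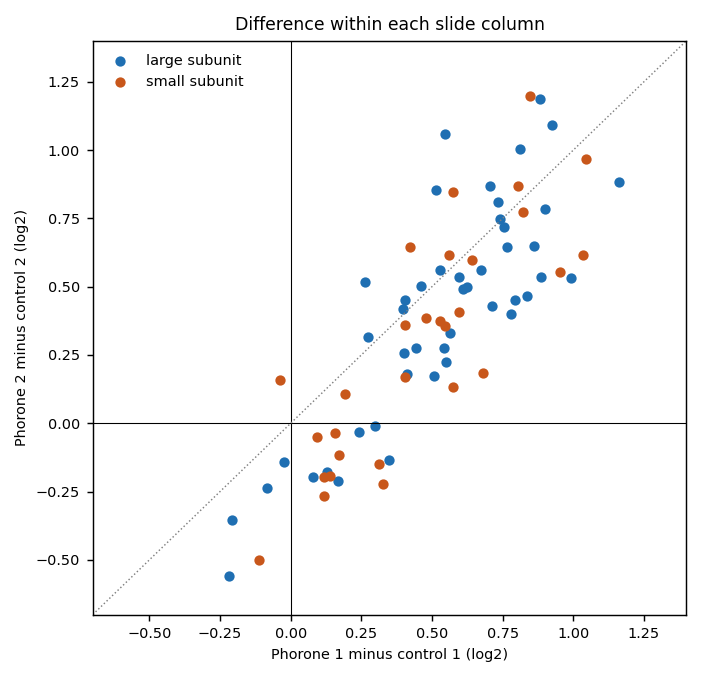
Each point is a gene, with its log2 difference between phorone and control replicate 1 (horizontal) and between phorone and control replicate 2 (vertical), the arrays that shared a slide column; the dotted line marks equal differences. Of the 75 points 55 lie above 0 on both axes, and several of the rest are positive for replicate 1 and negative for replicate 2.

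Of the large subunit genes, 28 of 46 rose (60.9%, against 24.3% of all genes) and 0 fell, with a median log2 fold change of 0.55. The count was 8 and 12 without phorone replicates 1 and 2, 10 with no filter on dim probes and 14 under spike-in scaling. The shares of all genes under these settings are given above. Without phorone replicate 1 the large subunit's share was only a little higher than that of all genes. Mrpl1 is the L1 protein, beside the site where spent transfer RNAs leave. It had signals of 2.62 and 2.64 on the phorone arrays, against 1.74 and 1.45 on the control arrays. Both phorone values lay above both control values, and Mrpl1 rose by 1.03 (SE 0.15, limma adjusted p = 0.00541). Its other probes read 0.83, which passed the test, and -0.23, which did not. Mrpl35 had 3.79 and 3.83 with phorone and 2.63 and 2.94 in control cells, and Mrpl47 had 2.12 and 2.14 with phorone and 1.20 and 1.05 in control cells. The groups did not overlap for either gene, and they rose by 1.02 (SE 0.15, limma adjusted p = 0.0063) and 1.01 (SE 0.13, limma adjusted p = 0.00383). Mrpl3, a core protein near the peptidyl transferase centre, had 4.37 and 4.28 on the phorone arrays and 3.56 and 3.28 on the control arrays. It rose by 0.91 (SE 0.15), and its other probes rose by 0.89 and 0.90. Mrpl40 had 3.74 and 3.65 with phorone and 2.84 and 2.86 in control cells, and rose by 0.84 (SE 0.12).

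The small subunit also held no lower call, with 14 of 29 genes higher (48.3%, against 24.3% of all genes), 0 lower and a median of 0.43. The count was 4 and 6 without phorone replicates 1 and 2, 7 under spike-in scaling, 5 with no filter and 9 with the replicate block. Among all genes, 16.9% were called higher under spike-in scaling, 7.86% with no filter and 21.3% with the replicate block. Without phorone replicate 1 the small subunit's share was not above that of all genes, which is given above. Mrps31 had signals of 3.41 and 3.51 on the phorone arrays, against 2.56 and 2.31 on the control arrays. Mrps22, a protein gained in mitochondria, had 2.52 and 2.53 with phorone and 1.47 and 1.56 in control cells. In both genes the groups lay well apart, with log2 fold changes of 1.02 (SE 0.14, limma adjusted p = 0.00527) and 1.00 (SE 0.12, limma adjusted p = 0.00342), and the other Mrps22 probe rose by 1.02. Mrps18c, one of 3 mitochondrial relatives of bacterial S18, had 3.38 and 3.46 on the phorone arrays and 2.58 and 2.60 on the control arrays, a log2 fold change of 0.84 (SE 0.12). Mrps7, which sits in the head of the small subunit and binds its ribosomal RNA, had 3.75 and 3.68 with phorone and 2.72 and 3.06 in control cells. It rose by 0.83 (SE 0.16) on that probe and by 0.57 on another. The control arrays of Mrps7 stood further apart than its phorone arrays.

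**Figure D3:**
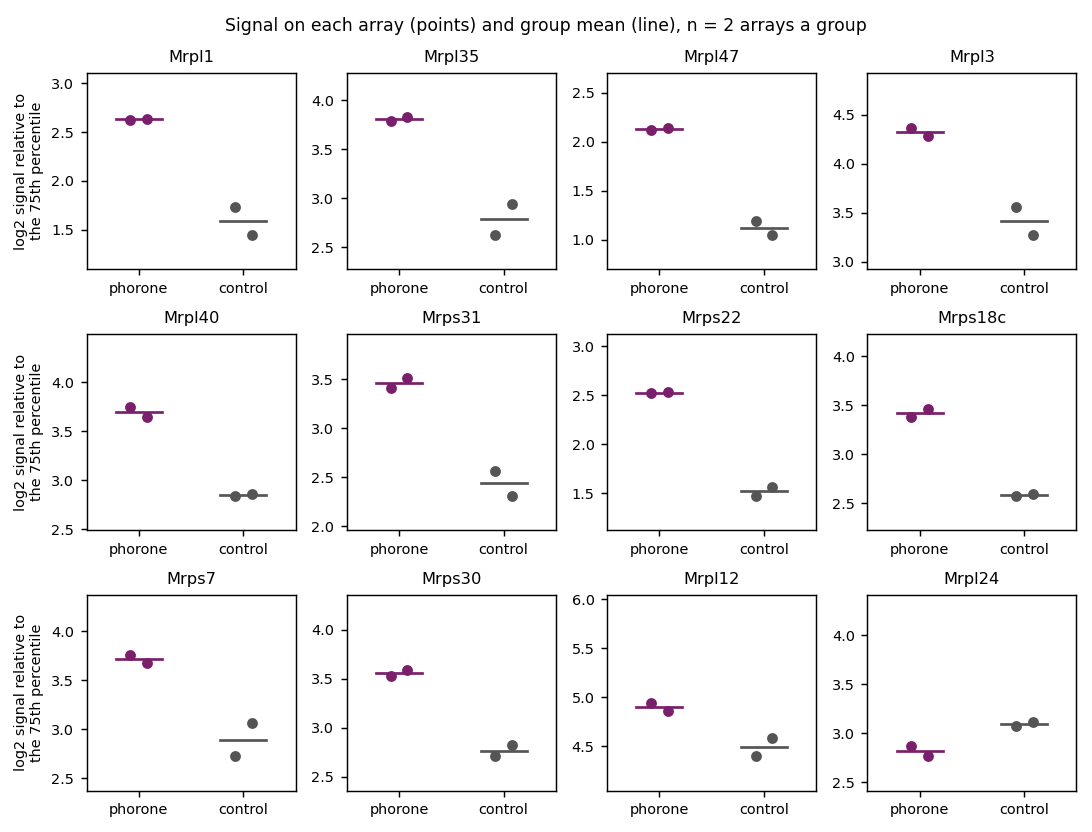
Log2 signal relative to the array's 75th percentile on each array for 12 genes, phorone arrays left and control arrays right in each panel; points are arrays, lines group means (n = 2 arrays a group), and every vertical axis spans the same number of log2 units. The first 10 panels are the 5 largest called increases of each subunit, with no overlap between groups; Mrpl12 (0.41) and Mrpl24 (-0.28) did not pass the test.

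The difference between the subunits was small: the large subunit's median exceeded that of the small subunit by 0.12, with 0.07 and 0.10 in the slide columns of replicates 1 and 2, and it lay between 0.055 and 0.20 when any array was left out. Because genes are not replicates, this difference was not tested. Names and structures do not fully match, since Mrps18a and Mrps30 are placed in the large subunit by structures of the mammalian ribosome. Mrps30 had 3.53 and 3.59 on the phorone arrays and 2.71 and 2.82 on the control arrays and rose by 0.80 (SE 0.12). Mrps18a had 2.90 and 2.68 with phorone and 2.57 and 2.91 in control cells, overlapping groups with a log2 fold change of 0.05 (SE 0.17). With both counted as large subunit genes, 29 of that subunit and 13 of the small subunit rose, and the medians again differed by 0.12.

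By descent, members were listed as having a homolog in the bacterial ribosome or as lacking one. For comparison, 24.3% of all genes tested were called higher, and their median log2 fold change was 0.08. In the large subunit 13 of 17 genes listed without one rose, with a median of 0.59, against 15 of 28 genes with a bacterial homolog, with a median of 0.42. In the small subunit 7 of 11 rose, with a median of 0.50, against 6 of 16 (37.5%) with a bacterial homolog, with a median of 0.22. Mrps18b, another S18 relative, stood here among the genes without a homolog, and counting it with the homologs, a choice made after seeing the data, gave 6 of 10 (median 0.48) against 7 of 17 (median 0.29). Mrpl47, which structures count as the L29 protein, was also listed without a homolog, and Mrps36 was kept in the small subunit. The difference between these classes was not tested, and Mrpl55 and the Mrps genes of the large subunit were left out of them.

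By position on the ribosome the lists are short, and their counts stand beside 24.3% of all genes called higher. In the stalk that recruits translation factors 2 of the 3 genes rose. Mrpl11 at its base had 5.24 and 5.16 on the phorone arrays and 4.48 and 4.51 on the control arrays and rose by 0.71 (SE 0.12), with 0.69 on its other probe. Mrpl10, which anchors the stalk, rose by 0.48 (SE 0.12), a call lost under 6 of the 14 alternatives. Mrpl12, the stalk protein that also binds the mitochondrial RNA polymerase, had 4.94 and 4.86 with phorone and 4.39 and 4.58 in control cells. Its groups did not overlap, but its log2 fold change of 0.41 (SE 0.13) missed the threshold (limma adjusted p = 0.058).

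The 7 proteins listed around the exit of the peptide tunnel were divided. The list did not hold Mrpl47, the L29 protein, which rose by 1.01. Mrpl44, Mrpl39, Mrpl45 and Mrpl22 rose by 0.80, 0.76, 0.74 and 0.62. Mrpl45, which helps to hold the ribosome at the inner membrane, had 4.77 and 4.58 on the phorone arrays and 4.01 and 3.86 on the control arrays. Mrpl17, Mrpl23 and Mrpl24 did not pass the test, with log2 fold changes of -0.02, -0.08 and -0.28. For Mrpl24 the phorone arrays read 2.87 and 2.76 and the control arrays 3.07 and 3.12, so that both phorone values lay below both control values (limma adjusted p = 0.117), but under spike-in scaling the 3 values were positive, at 0.41, 0.35 and 0.15. In the central protuberance, which touches the small subunit's head, Mrpl40, Mrpl46, Mrpl38 and Mrpl18 rose by 0.84, 0.76, 0.57 and 0.43, while Mrpl48 (0.14) and Mrpl27 (-0.02, but 0.41 under spike-in scaling) did not pass. The call of Mrpl18 was lost under 10 of the 14 alternatives and that of Mrpl38 under 6.

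In the head of the small subunit 5 of 8 genes rose, Mrps31, Mrps7, Mrps9, Mrps33 and Mrps10. Mrps9 had 2.84 and 2.80 with phorone and 2.26 and 1.96 in control cells and rose by 0.71 (SE 0.15), and Mrps33 and Mrps10 rose by 0.59 and 0.45, calls lost under 6 and 9 of the 14 alternatives. Mrps35, Mrps24 and Mrps14 did not pass, with values of 0.35, 0.08 and 0.02. Around the decoding centre and the path of the messenger RNA, Mrps7 and Mrps5 rose by 0.83 and 0.62, and Mrps11 (0.43), Mrps12 (0.29) and Mrps24 (0.08) did not pass. Mrps12, the homolog of the bacterial decoding protein S12, had 4.38 and 4.29 on the phorone arrays and 3.97 and 4.12 on the control arrays, without overlap (limma adjusted p = 0.126).

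Genes named for a strong signal included some that rose and some that did not pass. Mrpl28 had 6.18 and 6.14 with phorone and 5.78 and 5.72 in control cells and rose by 0.41 (SE 0.12), the smallest change that passed, with the call lost under 10 of the 14 alternatives. Mrpl14 had 6.16 and 6.08 with phorone, against 5.42 and 5.33 in control cells, and rose by 0.74 (SE 0.12). Mrpl33, whose promoter is printed above, had 6.26 and 6.12 with phorone and 6.34 and 6.35 in control cells, or -0.16 on the log2 scale (SE 0.12, limma adjusted p = 0.332), which became 0.27 under spike-in scaling. In the small subunit Mrps16 (0.03) and Mrps6 (-0.07, but 0.36 under spike-in scaling) had overlapping groups. A probe for a copy of Mrps16 shared 51 of 60 bases with the Mrps16 probe, so the signal of this gene is uncertain.

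The lowest values, from genes singled out after their values were seen, belonged to Mrpl54 and Mrps36. Mrpl54 had 3.51 and 3.48 on the phorone arrays and 3.73 and 4.04 on the control arrays, a difference of -0.39 (SE 0.15, limma adjusted p = 0.0949). Mrps36, which later work assigned to the 2-oxoglutarate dehydrogenase complex, had 2.60 and 2.58 with phorone and 2.71 and 3.08 in control cells, a log2 fold change of -0.30 (SE 0.16). In both genes the groups did not overlap. With control replicate 2 as the lone control array, whose spread was then taken from the phorone arrays, both were called lower (-0.55 and -0.49), and under spike-in scaling both were positive (0.048 and 0.13).

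Where a gene had several probes they mostly told the same direction. Of the 111 probes 108 passed the filter, and 62 of these were called higher and 0 lower, against 25.5% and 20.3% of all probes. Among the 25 genes that kept several probes, 22 showed 1 sign throughout, and 0 had probes called in opposite directions. The probes of Mrps17 and Mrpl50, singled out after their values were seen, differed in call: those standing for the genes read 0.15 and 0.39 and did not pass, and the others rose by 0.86 and 0.71. The reverse held for 9 genes called higher, each with another kept probe that did not pass: Mrpl1 (-0.23), Mrpl18 (0.34), Mrpl40 (0.55), Mrpl45 (0.34), Mrpl49 (0.45), Mrps5 (0.41 and 0.40), Mrps9 (0.46), Mrps23 (0.36) and Mrps25 (0.05).

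The rest of the machinery was read from lists of named genes, beside 24.3% called higher and 21.3% called lower among all genes. Of 6 measured proteins of the mitochondrial ribosome with other names, 4 rose and 0 fell: Ptcd3, a small subunit protein, had 4.68 and 4.68 with phorone and 3.54 and 3.60 in control cells and rose by 1.11 (SE 0.12), Gadd45gip1 of the large subunit rose by 0.86 and Chchd1 of the small subunit by 0.82. Of 14 translation factors of mitochondria 10 rose and 0 fell, with a median of 0.53. Gfm1, the elongation factor that moves the ribosome along, had 2.32 and 2.21 with phorone and 1.08 and 0.95 in control cells and rose by 1.25 (SE 0.13). Taco1, an activator of the translation of a cytochrome oxidase subunit, and the release factor Mtrf1l rose by 1.21 and 0.76. Of 16 genes for transcription of mitochondrial DNA, its upkeep and RNA processing 10 rose and 0 fell (median 0.61), including the transcription factor Tfb2m by 1.03, the transfer RNA processing enzyme Elac2 by 0.90 and the DNA helicase Twnk by 0.84.

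Of 26 assembly and ribosomal RNA modification factors 11 rose and 0 fell, with a median of 0.42, against 24.3% higher and 21.3% lower among all genes. Mrm3, a methyltransferase of the large ribosomal RNA, had 0.50 and 0.23 on the phorone arrays and -0.74 and -0.85 on the control arrays and rose by 1.16 (SE 0.15). The assembly factors Noa1 and Mterf4 rose by 1.02 and 0.93, though Mterf4 stood at -0.26 when its probes were averaged. Among 9 regulators of nuclear genes for mitochondria 3 rose and 2 fell, shares near those of all genes. Myc and the coactivator Pprc1 rose by 0.95 and 0.65, and Yy1 rose by 0.40, a call lost under 11 of the 14 alternatives, whereas the coactivators Ppargc1a and Ppargc1b fell by 2.19 (SE 0.57) and 1.90 (SE 0.23). The phorone arrays of Ppargc1a stood far apart, at -3.96 and -2.23, against -0.76 and -1.05 on the control arrays. Without either phorone array Myc was no longer called, and without either control array Ppargc1a was not. Nrf1 and Gabpa, whose binding cores are given above, did not pass, with values of 0.34 and -0.41.

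**Figure D4:**
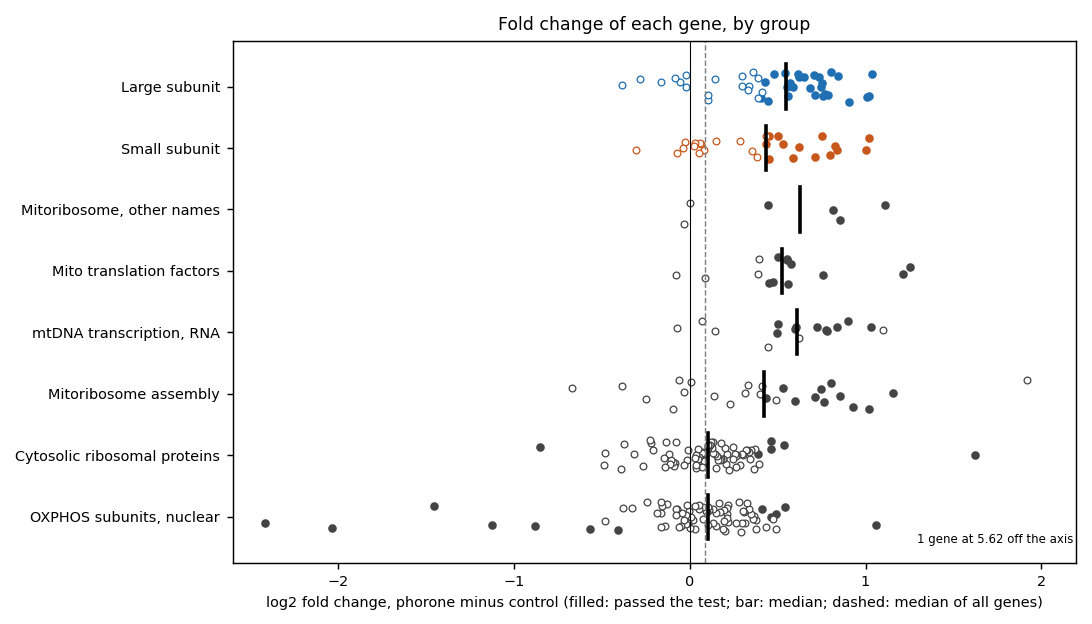
Log2 fold change, phorone minus control, of each gene (points, filled where the test was passed) by group, with the group's median as a bar and the median of all genes tested (0.08) as a dashed line. The medians of the mitochondrial ribosome and of its factors lie between 0.42 and 0.63, and those of cytosolic ribosomal proteins and oxidative phosphorylation subunits at 0.10; Ndufs1 (5.62, not called) is off the axis.

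Cytosolic ribosomal proteins and oxidative phosphorylation subunits are the nearest groups by function. Calls were rarer in both groups than among all genes, of which 24.3% were called higher and 21.3% lower. Of 82 cytosolic ribosomal protein genes measured, 5 rose (6.10%) and 1 fell, with a median of 0.10. Of 82 nuclear genes for oxidative phosphorylation subunits 5 rose (6.10%) and 7 fell, also with a median of 0.10. Their medians differed from that of mitochondrial ribosomal proteins (0.45) as a description, since genes of a group are not replicates. The median signal of mitochondrial ribosomal proteins was 3.25 and 3.21 on the phorone arrays and 2.71 and 2.86 on the control arrays. That of oxidative phosphorylation subunits was 5.14 and 5.17 with phorone and 4.98 and 5.11 in control cells, and that of cytosolic ribosomal proteins 7.39 and 7.40 with phorone and 7.38 and 7.42 in control cells. Over the 3328 genes whose mean signal lay between the members' quartiles, 2.16 and 4.07, 28.8% were called higher and 17.8% lower, with a median of 0.14, while 22 of the 37 members in that range rose.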

How the data were processed

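The authors deposited scanner output with intensity values of each spot, made by Agilent Feature Extraction 10.7.3.1 with spatial and multiplicative detrending and surrogates for dim spots switched on, per the file headers. The flags for spots well above background are other values of the same software, per the file headers. The authors' deposited table holds log2 values, and beside the scanner output a column differed by a constant, with a remaining SD of no more than 0.0223, which settles its scale and direction. Its column medians were -4.37 and -4.30 for phorone and -4.39 and -4.35 for control arrays.

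The processed signals were put on the log2 scale, less each array's 75th percentile. Spots marked as outliers were dropped (111 probes lost). A probe was kept where 1 group or more had it well above background on both of its arrays, and the brightest stood for its gene (17033 genes). The comparison used limma 3.58.1 (R 4.3.3, 2 residual and 3.03 prior degrees of freedom, two-sided, Benjamini-Hochberg adjustment over all genes, call below 0.05). This fit was tested on simulated data. RefSeq accessions matched 28128 of 40628 gene probes and 110 of the 111 member probes. No spot was saturated, and the number of arrays limits the precision.

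Members and lists were chosen with earlier results of these data known. Named were the 5 largest called changes of each subunit, the 3 brightest genes of each, genes of the position lists and up to 3 called genes each way per other list. One further promoter, of Mrps16, met the rule for printing and was not shown, because the stretch lies downstream of that gene's other start site. Alternatives changed the scaling, background, filter, probe choice, replicate block and the arrays used.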

Additional observations from a re-analysis of the deposited data

How the results depend on the processing

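Over 14 alternatives, the 42 genes that rose all kept positive values, and 12 of them were called higher under each alternative: Mrpl1, Mrpl3, Mrpl16, Mrpl20, Mrpl35, Mrpl39, Mrpl40, Mrpl47, Mrps18c, Mrps22, Mrps30 and Mrps31. The count of higher genes was 21 with spike-in scaling, 15 without the filter on dim probes, and ranged from 12 to 36 when an array was left out. The count of lower genes was 0, except 1 with normexp (Mrpl54) and 2 without control replicate 1, with a range of 0 to 2. The members' median ranged from 0.43 to 0.52 when an array was left out. It was 0.89 under spike-in scaling, where the median of all genes moved to 0.52. The members stood 0.37 above all genes in the main and the spike-in scaling. Subtracting the same value from all genes of an array cannot alter this gap. The large subunit's lead over the small was 0.077 under quantile normalisation and 0.055 to 0.20 when an array was left out.

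With the replicate block, which is also the slide column, 33 genes were higher and 0 lower, and the median was 0.45. By subunit it left 24 large and 9 small subunit genes higher, against 28 and 14 without it. The numbers mark no stated shared culture, and deviations of same-numbered arrays correlated with r = -0.02 across genes.

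Genes near 0 and the negative members changed sign. Spike-in scaling and median scaling subtract the same value from every gene of an array, so they shift all fold changes alike. Spike-in scaling turned all 11 negative members positive: Mrpl17 (0.41), Mrpl23 (0.35), Mrpl24 (0.15), Mrpl27 (0.41), Mrpl33 (0.27), Mrpl54 (0.048), Mrps6 (0.36), Mrps36 (0.13), Mrpl4 (0.38), Mrps21 (0.40) and Mrps26 (0.41). Median scaling gave Mrps16 -0.0041 and Mrps14 -0.010, quantile normalisation gave Mrps16 -0.059, Mrps14 -0.018 and Mrps18a -0.0054, and normexp gave Mrps14 -0.020. When each array was left out in turn, 13 members changed sign: Mrpl17 from -0.13 to 0.084, Mrpl27 from -0.19 to 0.15, Mrps14 from -0.076 to 0.12, Mrps16 from -0.062 to 0.12, Mrps18a from -0.12 to 0.22, Mrps24 from -0.16 to 0.32, Mrps6 from -0.20 to 0.048, Mrpl34 from -0.048 to 0.26, Mrpl4 from -0.18 to 0.068, Mrps15 from -0.030 to 0.15, Mrps21 from -0.18 to 0.096, Mrps26 from -0.19 to 0.13 and Mrps28 from -0.031 to 0.15. Mterf4 stood at -0.26 with averaged probes. Apart from these shared shifts, the cause of the sign changes was not tested. With 2 arrays a group, small changes could not be told from the spread.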

Other observations

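Outside the naming rule, 3 genes carry an Mrpl symbol in RefSeq but another name on the array. Mrpl57 had signals of 4.92 and 4.83 on the phorone arrays and 4.41 and 4.47 on the control arrays and rose by 0.44 (limma adjusted p = 0.0362), a call lost under 10 of the 14 alternatives. Mrpl42 and Mrpl58 had log2 fold changes of 0.21 and 0.18 and did not pass the test.

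The array also held probes for predicted transcripts described as similar to mitochondrial ribosomal proteins, with sequences other than those of the members' probes. A predicted copy of Mrpl47 (LOC100044597) rose by 0.96 beside 1.01 for Mrpl47 itself, and the probes matched at 21 of 60 bases at most. Only probes were compared with each other, so a copy's probe may still read the member's own RNA. Both probes of Gm9481, described as similar to Mrpl41, rose by 0.54 and 0.56, beside 0.54 for Mrpl41. A copy of Mrpl49 (LOC100048603) rose by 0.47, beside 0.45 for Mrpl49. The probe of Gm9173, described as similar to Mrps16 and matching its probe at 51 of 60 bases, stood at -0.0067 beside 0.03 for Mrps16. Neither passed the test. The probe of LOC100045285, described as similar to Mrps36, stood at 0.08 beside -0.30 for Mrps36, again with neither called. Of the probes of Gm15770, described as similar to Mrpl12, one rose by 0.47 and the other, at 0.37, did not pass, beside 0.41 for Mrpl12. Those of LOC100048668 (like Mrpl47), Gm13552 (Mrps18b), LOC100044526 (Mrps14), Gm2401 and LOC100045389 (both Mrps16) were not well above background on any array.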
